A study of Mus musculus with 17 samples.

Results

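Syngeneic grafts (n = 3) and extracranial tumors (n = 4) of a mouse model of rhabdoid tumor were compared over all genes of the count files. The 7 libraries were taken by their titles from the 17 of the series. The other 10 libraries, 3 healthy brains, 3 CNS tumors of the SHH subtype and 4 CNS tumors of the Myc subtype, were not compared, but they shared the filter on low counts, the scaling and the estimate of the spread. Grafts and extracranial tumors carried the same labels of strain (C57BL/6J) and genotype (SMARCB1 -/-), so the loss of this gene is shared by both sides and is not what was compared. A syngeneic graft is tumor tissue placed into a host of the same strain, here into the flank, and an extracranial tumor is one found outside the skull. The labels do not give the parent tumor of a graft, its number of passages, the organ of an extracranial tumor, the agent that deleted the gene, or the age and sex of the animals. Whether any grafts came from 1 parent tumor, or from a tumor among the 4, is therefore not known.

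Rhabdoid tumors are cancers of early childhood that arise in the brain, the kidney and soft tissue. Their defining lesion is inactivation of SMARCB1, which belongs to the core of SWI/SNF, a complex that moves nucleosomes and counteracts silencing by Polycomb proteins. A host of the same strain shares its transplantation antigens with the graft, except those that differ between the sexes. The host's blood vessels, macrophages and lymphocytes can enter the graft. Libraries were made with a stranded mRNA kit, and the labels state no sorting of cells, so host cells can contribute to the RNA. In such bulk samples fewer cells of a type and less RNA per cell cannot be told apart. Levels are given in CPM, the counts scaled to the same library size for every library, in the order of the library numbers, grafts 1 to 3 and extracranial tumors 1 to 4. Log2 fold changes are grafts minus extracranial tumors ± SE, with Benjamini-Hochberg adjusted p-values of the edgeR quasi-likelihood test over 21494 genes, and a gene was called at an adjusted p under 0.05. The labels do not say that libraries of a group came from separate animals, so a p-value here speaks only of how these libraries vary. Between 2 libraries the chi-square of counts per gene was 82.1 to 199 in grafts and 413 to 605 in extracranial tumors. That variation is beyond counting error, and its source was not tested.

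The grafts were more like one another than the extracranial tumors were. Across genes, which are not independent replicates, the correlation of log2 CPM was 0.974 to 0.983 between grafts, 0.877 to 0.930 between extracranial tumors and 0.884 to 0.922 between the groups. Extracranial tumor 1 correlated at 0.922 with each graft and at 0.887 to 0.910 with the other extracranial tumors. Extracranial tumor 3 was the least like its own group, at 0.877 to 0.893, and lay apart on the second principal component (at -184, with the other 6 libraries between 6.92 and 87.3). The SD of log2 CPM between libraries had a median of 0.26 in grafts and 0.66 in extracranial tumors, and it was larger in extracranial tumors for 17906 of 21494 genes. Total counts ran from 36951431 to 96214427 in grafts and from 22491998 to 52956537 in extracranial tumors, and mitochondrial transcripts made up 1.65 to 1.81% and 2.10 to 3.74% of them. Xist, the RNA of the inactive X chromosome, was at 542, 802 and 1107 CPM in grafts and at 1264, 1309, 1.19 and 965 CPM in extracranial tumors. The Y-linked gene Ddx3y was at 57.7, 50.03 and 0.031 CPM in grafts and at 0, 0, 94.9 and 0 CPM in extracranial tumors. Grafts 1 and 2 thus held both transcripts, and every other library held 1 of them at a level above 2 CPM.

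Smarcb1, the gene named in the genotype, was at 31.1, 30.7 and 25.1 CPM in grafts and at 23.02, 11.3, 7.25 and 19.8 CPM in extracranial tumors. A count per gene does not show which exons the reads came from, so it is no check of the deletion. The groups did not overlap, and the difference did not pass the test (log2 fold change 0.92 ± 0.62, adjusted p = 0.38). None of the 28 measured SWI/SNF subunits was called in either direction.

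Of the 21494 genes tested, 465 (2.16%) were called higher in grafts and 563 (2.62%) lower. The median log2 fold change was 2.29 over the genes called higher and -3.99 over those called lower, against -0.13 over all genes tested, 41.8% of which pointed upward. In 2551 genes (11.9%) every graft was above every extracranial tumor, and in 2216 (10.3%) every graft was below. These shares are the background for the lists below, and a single call in a list is a result for that gene and not for its list. Most calls needed all 3 grafts. Without graft 1, 2 or 3 in turn, 54, 44 and 123 genes were called higher and 10, 12 and 27 lower, with 1 library fewer in the smaller group. Without extracranial tumor 1 the counts rose to 854 and 1116, and without extracranial tumor 2 or 4 they were 260 or 289 higher and 341 or 451 lower. A fit of the 7 libraries alone called 71 higher and 39 lower, and a fit of the 14 tumors 97 and 64. Across 15 alternatives, 20 higher and 5 lower genes were called every time.

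**Figure D1:**
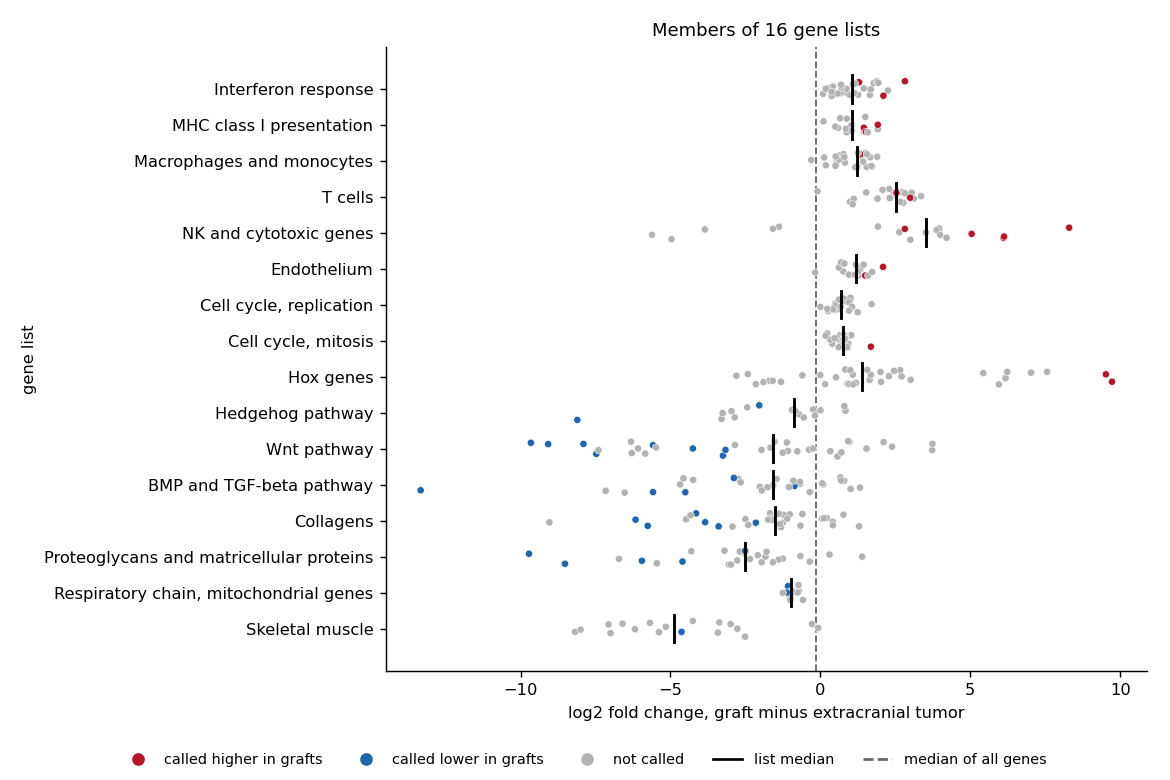
Each point is the log2 fold change of 1 gene, grafts minus extracranial tumors, in 16 gene lists, with red for genes called higher, blue for genes called lower and grey for the rest. Black bars are list medians, and the dashed line is the median of all genes, -0.13. All measured interferon, MHC class I and cell cycle genes lie to the right of 0, and the medians of the Wnt, BMP and matrix lists lie to the left.

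The genes that were called in every fit were the differences that depended least on the choice of libraries and test. Those named here were, apart from Pcsk1n, Sall1, Acot3 and Gli1, chosen after their values were seen. Leo1, a subunit of the PAF1 complex that travels with RNA polymerase II, lies on chromosome 9 from 75441524 to 75466432 in GRCm38. It was at 79.9, 113 and 103 CPM in grafts and at 27.1, 28.2, 28.0 and 23.01 CPM in extracranial tumors. All grafts were well above all extracranial tumors, which lay close together (log2 fold change 1.89 ± 0.17, adjusted p = 0.00048). Lap3, a leucine aminopeptidase, was at 118, 131 and 124 CPM against 55.8, 60.7, 52.5 and 56.7 CPM and had a small but tight difference (log2 fold change 1.14 ± 0.15, adjusted p = 0.00301). Helz2, an interferon-inducible helicase, was at 210.5, 168 and 144 CPM against 39.0, 23.3, 34.8 and 13.3 CPM (log2 fold change 2.66 ± 0.39, adjusted p = 0.00656). Trim6, a ubiquitin ligase that acts in interferon signalling, was at 24.6, 27.0 and 33.1 CPM against 1.37, 0.506, 1.28 and 1.46 CPM. Its levels did not overlap (log2 fold change 4.62 ± 0.71, adjusted p = 0.00773).

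Several of these genes were low or near 0 in extracranial tumors. Pcsk1n, which encodes an inhibitor of a prohormone-cleaving protease, was at 49.6, 103 and 81.1 CPM in grafts and at most 0.0976 CPM in extracranial tumors (log2 fold change 11.18 ± 1.27, adjusted p = 0.00261). Casz1, a zinc finger transcription factor, was at 9.26, 14.4 and 6.74 CPM against 1.17, 1.25, 1.43 and 0.646 CPM (log2 fold change 3.17 ± 0.42, adjusted p = 0.00301). Sall1, a zinc finger transcription factor of kidney and limb development, was at 4.89, 6.21 and 8.16 CPM against at most 0.0976 CPM (log2 fold change 7.31 ± 1.03, adjusted p = 0.00505). It was the member called among 10 microglia genes, whose median log2 fold change was -0.48, or 0.20 without extracranial tumor 1. Crb2, a protein of apical cell polarity, ran over a wide range in grafts, 54.3, 19.3 and 7.86 CPM, and was at most 0.477 CPM in extracranial tumors (log2 fold change 7.14 ± 1.14, adjusted p = 0.00903). Ttc39a was at 23.9, 21.9 and 49.3 CPM in grafts and between 0.293 and 0.895 CPM in extracranial tumors (log2 fold change 5.67 ± 0.72, adjusted p = 0.00301).

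Among the 5 genes called lower in every fit were Gli1, described with its pathway below, and Efs and Kdsr. Efs, a docking protein of Src kinases, was at 0.450, 0.590 and 0.365 CPM in grafts and at 83.9, 45.1, 56.7 and 20.1 CPM in extracranial tumors (log2 fold change -6.78 ± 0.99, adjusted p = 0.00649). Kdsr, an enzyme of sphingolipid synthesis, was at 20.3, 21.3 and 25.0 CPM against 63.7, 69.8, 56.6 and 62.5 CPM. It differed by a smaller step and with little spread on either side (log2 fold change -1.51 ± 0.21, adjusted p = 0.00445).

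A cluster of acyl-CoA thioesterase genes, which cut fatty acyl-CoA into free fatty acid and CoA, was higher in grafts. Acot2, Acot4, Acot3 and Acot5 lie on chromosome 12 between 83987861 and 84076020 (GRCm38), with Acot1 between Acot2 and Acot4, and these 4 were called while Acot1 was not. The genes are close paralogs, and reads that match several of them could be split by the counting, so their separate values are uncertain. Acot2 was at 111, 125 and 51.2 CPM in grafts and at 11.5, 11.6, 11.4 and 14.5 CPM in extracranial tumors (log2 fold change 2.97 ± 0.37, adjusted p = 0.00301). Acot3 was at 29.9, 26.4 and 1.72 CPM against at most 0.0389 CPM (log2 fold change 9.74 ± 1.25, adjusted p = 0.00301). Acot5 was at 38.7, 46.9 and 5.03 CPM and had no count in any extracranial tumor (adjusted p = 0.00773), which makes it at least 1358-fold higher over a floor of 3 counts in the group. Graft 3 was the lowest graft in all of them. Acot4 was at 9.45, 6.04 and 1.93 CPM against 1.90, 0.175, 0.388 and 0.170 CPM (log2 fold change 3.17 ± 0.80, adjusted p = 0.042), and the adjusted p-values of Acot1 and of Acot6, which follows Acot5, were 0.218 and 0.0977. Pex3, needed for the assembly of peroxisomes, was at 164, 171 and 75.6 CPM against 30.7, 34.5, 29.9 and 28.6 CPM (log2 fold change 2.15 ± 0.27, adjusted p = 0.00301). The call of Acot4 was lost without any 1 graft and without extracranial tumor 2, 3 or 4, and those of Acot2, Acot3, Acot5 and Pex3 held with each library left out. With the 7 libraries alone Acot5 was not called (adjusted p = 0.0776). Acot2, Acot4 and Pex3 were chosen after their values were seen.

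**Figure D2:**
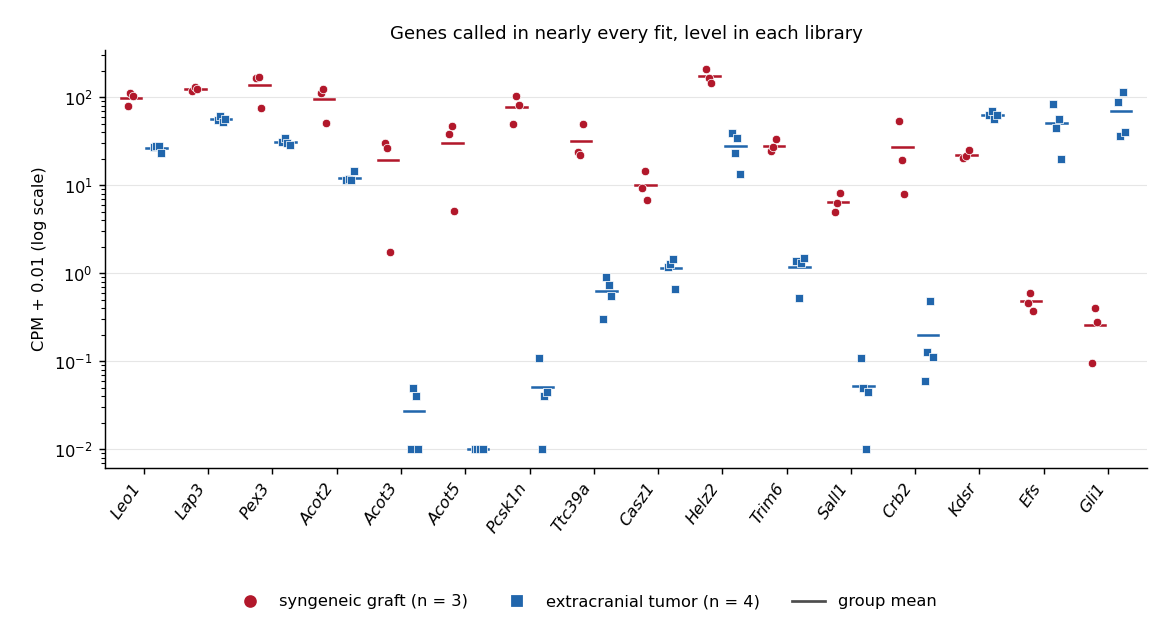
CPM + 0.01 on a log axis for 16 genes in each library, with circles for the 3 grafts, squares for the 4 extracranial tumors and bars for group means. Acot5 sits at 0 CPM in all extracranial tumors, and Gli1, Efs and Kdsr are the genes with the lower values in grafts.

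The other genes among the 12 largest increases were of several kinds. Cited1, a coactivator expressed in nephron progenitors and in trophoblast, was at 489, 507 and 576 CPM in grafts against 0.146, 2.74, 1.13 and 0.306 CPM (log2 fold change 8.87 ± 1.65, adjusted p = 0.0186). Slc4a5, a sodium bicarbonate transporter, was at 217, 228 and 79.5 CPM against at most 0.268 CPM (log2 fold change 10.79 ± 2., adjusted p = 0.0182). Eras, a Ras protein of embryonic stem cells, was at 17.7, 16.6 and 33.2 CPM against at most 0.0488 CPM (log2 fold change 11.13 ± 2.26, adjusted p = 0.023). The rule that chose these genes required no overlap between the groups, and graft 3 was the lowest graft for Slc4a5. Without graft 1 or 2 the calls of Cited1, Slc4a5 and Eras were lost, and without graft 3 that of Eras. Cldn6, a tight junction protein of embryonic epithelium, was at 97.1, 160.0 and 5.16 CPM against 1.41, 0.0389, 0.0298 and 0.238 CPM (log2 fold change 7.76 ± 1.61, adjusted p = 0.0249), with graft 3 far below the other grafts. Gbp2b, an interferon-inducible GTPase, was at 53.5, 234 and 87.6 CPM against at most 1.85 CPM (log2 fold change 7.69 ± 1.36, adjusted p = 0.0148). Oit1 (64.8, 8.70 and 1.12 CPM), the lectin-like gene Clec2h (36.3, 11.4 and 5.59 CPM) and the metalloprotease gene Adamdec1 (10.1, 41.6 and 1.32 CPM) ranged widely among grafts (adjusted p = 0.0437, 0.0299 and 0.0262). The calls of Cldn6 and Adamdec1 were lost without graft 1 or 2, that of Gbp2b without graft 2, that of Clec2h without any 1 graft and that of Oit1 without any 1 of the 7 libraries.

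MHC class I and interferon genes were higher in grafts as far as they passed the test, and all members of these 2 lists pointed that way. MHC class I molecules show peptides from inside a cell to CD8 T cells, and interferons raise both these genes and antiviral genes. Of 17 MHC class I presentation genes, 3 were called higher and 0 lower, all 17 pointed upward, and their median log2 fold change was 1.04. Psmb8, a catalytic subunit of the immunoproteasome, was at 197, 239 and 233 CPM in grafts and at 102, 41.2, 94.5 and 73.7 CPM in extracranial tumors (log2 fold change 1.52 ± 0.27, adjusted p = 0.0147). Tap1, a subunit of the transporter that brings peptides into the endoplasmic reticulum, was at 209.6, 243 and 230.1 CPM against 114, 53.0, 110.3 and 55.6 CPM (log2 fold change 1.45 ± 0.29, adjusted p = 0.023). Both genes separated the groups without overlap. H2-Q7, a nonclassical class I gene with near-identical copies, was also called (log2 fold change 1.92 ± 0.48, adjusted p = 0.0417). B2m, the shared light chain, was at 1933, 2200 and 2079 CPM against 1760, 920.0, 1381 and 445 CPM and was not called (log2 fold change 0.88 ± 0.36, adjusted p = 0.141). Without graft 1, 2 or 3 the list had 1, 0 and 1 calls. Without extracranial tumor 1 it had 9, and a fit of the 7 libraries alone made 0.

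Of 35 interferon response genes, 3 were called higher and 0 lower, and all 35 pointed upward with a median of 1.04. In 22 of them every graft was above every extracranial tumor, as in 11.9% of all genes tested. Oas3, which makes the 2-5A messenger that activates RNase L, was at 162, 116 and 190.3 CPM against 44.1, 8.41, 32.9 and 2.96 CPM (log2 fold change 2.82 ± 0.73, adjusted p = 0.0435). Parp14, an ADP-ribosyltransferase, was at 300.1, 259 and 275 CPM against 174, 85.3, 145 and 50.7 CPM (log2 fold change 1.29 ± 0.32, adjusted p = 0.041). Extracranial tumors 2 and 4 were the lowest in both genes. Cmpk2, a mitochondrial nucleotide kinase, had an adjusted p of 0.0497 (log2 fold change 2.10 ± 0.57). Oasl2 was at 317, 295 and 324 CPM against 220.0, 138, 404 and 24.5 CPM, where extracranial tumor 3 was above all grafts (log2 fold change 0.67 ± 0.67, adjusted p = 0.579). No gene of this list of 35 was called without graft 1, 2 or 3, without extracranial tumor 2, or with the 7 libraries alone, and limma voom with quality weights called 20.

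Promoters of these genes are shown because all members of both lists pointed the same way. The table of RefSeq promoters (GRCm38.p6) held 24 of the 35 interferon genes and 14 of the 17 MHC class I genes, and the 250 bases before each start were searched on both strands. The core of the interferon-stimulated response element, spelled GAAANNGAA, was present before 13 of the 24 interferon genes (54.2%), 3 of the 14 MHC class I genes (21.4%) and 8.18% of all 27025 genes in the table. It was present before 10.1% of the genes called higher, 4.99% of those called lower and 7.78% of all genes tested, among genes with a promoter in the table. The gamma-activated site, TTCNNNGAA, was before 4 of the 24, 1 of the 14 and 8.13% of all. For the genes called higher, those called lower and all genes tested, its shares were close, at 7.58%, 6.93% and 7.27%. A match describes the letters and is not a binding site or a cause. Below are the 250 bases before Oas3 (minus strand, chr5:120777660-120777909) and Cd274 (plus strand, chr19:29367188-29367437), with the response element core in capitals, and before Psmb8 (plus strand, chr17:34197945-34198194), with the gamma-activated site in capitals. Oas3 holds 2 overlapping copies of the core. The promoter of Cd274 is shown for its place among the immune checkpoints, although its change was not called.
Oas3: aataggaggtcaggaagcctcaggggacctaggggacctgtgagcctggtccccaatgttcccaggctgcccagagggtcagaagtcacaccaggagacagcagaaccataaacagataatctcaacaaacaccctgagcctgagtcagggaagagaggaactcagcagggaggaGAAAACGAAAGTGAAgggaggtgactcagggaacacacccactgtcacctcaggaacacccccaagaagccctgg
Cd274: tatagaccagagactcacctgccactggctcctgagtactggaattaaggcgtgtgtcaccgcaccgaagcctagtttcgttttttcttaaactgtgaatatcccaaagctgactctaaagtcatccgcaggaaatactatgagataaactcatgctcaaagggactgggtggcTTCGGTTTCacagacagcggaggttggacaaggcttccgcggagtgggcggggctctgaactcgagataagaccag
Psmb8: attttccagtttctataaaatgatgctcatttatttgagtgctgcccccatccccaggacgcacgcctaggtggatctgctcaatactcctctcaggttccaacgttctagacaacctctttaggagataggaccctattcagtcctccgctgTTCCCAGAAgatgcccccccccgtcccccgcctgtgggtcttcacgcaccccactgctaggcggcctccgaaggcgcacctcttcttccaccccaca

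The transcripts of T cells and natural killer cells that passed the test were higher in grafts. Of 22 T cell genes, 3 were called higher and 0 lower, and 21 pointed upward with a median log2 fold change of 2.51. Lck, the kinase of the T cell receptor, was at 14.3, 28.9 and 25.1 CPM in grafts and at 5.37, 2.84, 6.35 and 1.12 CPM in extracranial tumors (log2 fold change 2.54 ± 0.59, adjusted p = 0.0323). Zap70, which acts after Lck, was at 5.63, 14.1 and 10.7 CPM against 1.80, 0.409, 2.15 and 0.748 CPM (log2 fold change 3.00 ± 0.79, adjusted p = 0.0459), and the receptor chain gene Cd247 was called too (log2 fold change 2.5 ± 0.64, adjusted p = 0.0427). All 3 genes separated the groups. Cd4 was at 33.8, 38.2 and 50.3 CPM against 6.78, 7.41, 29.5 and 12.7 CPM and was not called (log2 fold change 1.53 ± 0.51, adjusted p = 0.0832). The T cell list summed to 151, 342 and 260 CPM in grafts and to 62.2, 23.9, 89.0 and 39.4 CPM in extracranial tumors.

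Of 19 genes of natural killer and cytotoxic cells, 6 were called higher and 0 lower, with a median of 3.52. Ifng, which encodes interferon gamma, had 10, 46 and 71 counts in grafts and none in extracranial tumors. It was at 0.281, 0.848 and 0.741 CPM in grafts, at least 28.0-fold higher over a floor of 3 counts in the other group (adjusted p = 0.00903), and it was called with each library left out. With the 7 libraries alone it was not called (adjusted p = 0.0794), and its counts were too low to be tested with the 14 tumors or at a minimum count of 50. Gzmb, a granzyme of killer cells, was at 31.1, 52.7 and 52.0 CPM against 3.12, 0.584, 1.31 and 0.510 CPM (log2 fold change 5.05 ± 1.11, adjusted p = 0.0297). Gzma was at 33.3, 14.9 and 36.6 CPM against 1.37, 0.0389, 0.298 and 0 CPM (log2 fold change 6.11 ± 1.44, adjusted p = 0.0343). Granzyme genes have similar copies, so their values are uncertain. Eomes, a T-box factor of killer cells and of some embryonic tissues, was at 222, 174 and 264 CPM against 10.5, 0.350, 1.55 and 0.374 CPM (log2 fold change 6.13 ± 1.57, adjusted p = 0.0426). The whole list summed to 375, 357 and 501 CPM in grafts, so Eomes held a large part of it. Which cells expressed Eomes was not tested. Within the list 5 genes pointed downward, none of them called. Without graft 1, 2 or 3 the calls fell to 1 each, without extracranial tumor 2, 3 or 4 to 1, 4 and 3, and with the 7 libraries alone to 1. The T cell calls fell to 0 without any 1 graft or extracranial tumor 2, and to 1 without extracranial tumor 4.

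Among ligands and receptors that restrain T cells, some were called higher in grafts. Of 15 immune checkpoint genes, 2 were called higher and 0 lower, with a median of 1.27, or 1.96 without extracranial tumor 1. Pdcd1lg2, which encodes the PD-1 ligand PD-L2, was at 3.46, 49.7 and 7.33 CPM in grafts, with graft 2 far above the others, and at 0.488, 0.214, 0.447 and 0.136 CPM in extracranial tumors (log2 fold change 5.98 ± 0.94, adjusted p = 0.00903). It was called with each library left out, and not with the 7 libraries alone (adjusted p = 0.0732). Tigit, a receptor on T and natural killer cells, was at 3.12, 13.2 and 11.1 CPM against 1.02, 0.136, 1.25 and 0.0340 CPM (log2 fold change 3.91 ± 0.95, adjusted p = 0.037), a call that was lost without any 1 graft or extracranial tumor 2. Cd274, which encodes PD-L1, was at 85.7, 173 and 103 CPM against 39.3, 35.2, 22.7 and 14.1 CPM. Its groups did not overlap, and it missed the threshold (log2 fold change 2.12 ± 0.59, adjusted p = 0.0534).

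**Figure D3:**
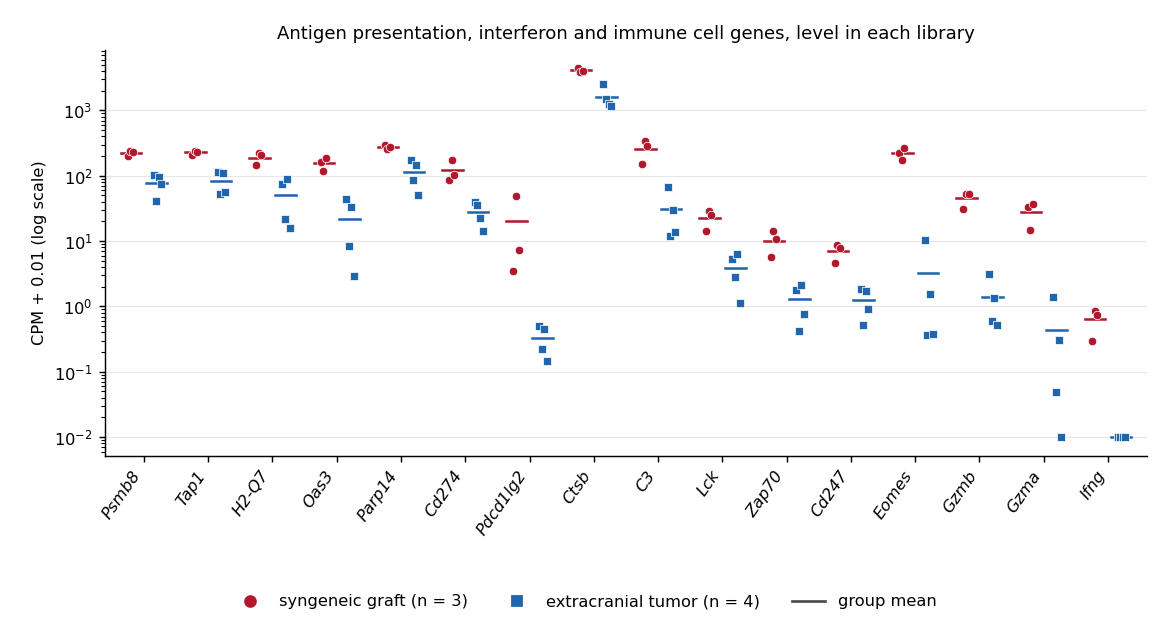
CPM + 0.01 on a log axis for 16 genes of antigen presentation, interferon response and immune cells, with circles for the 3 grafts, squares for the 4 extracranial tumors and bars for group means. The groups do not overlap in any of these genes, and Ifng is at 0 CPM in all extracranial tumors.

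Of the myeloid and other leukocyte transcripts, few passed the test. Ptprc, the pan-leukocyte marker CD45, was at 469.6, 418 and 358 CPM in grafts and at 259, 83.8, 113 and 128 CPM in extracranial tumors (log2 fold change 1.51 ± 0.41, adjusted p = 0.0483). Of 25 macrophage and monocyte genes, 1 was called higher and 0 lower, where 2.16% of all genes were called higher. Of the 25, 24 pointed upward with a median of 1.21. The called gene was Ctsb, a lysosomal protease that other cells also express (4408, 3923 and 4011 CPM against 2549, 1519, 1264 and 1187 CPM, log2 fold change 1.34 ± 0.34, adjusted p = 0.0427). Lyz2, lysozyme of macrophages, was at 5000, 1891 and 2291 CPM against 4068, 1622, 949 and 530.4 CPM, so the groups overlapped (log2 fold change 0.77 ± 0.73, adjusted p = 0.551). The macrophage list summed to 18008 to 21692 CPM in grafts, 16486 in extracranial tumor 1 and 6096 to 7480 in the other extracranial tumors. The class II genes Cd74 (log2 fold change 1.80 ± 1.07, adjusted p = 0.313) and H2-Aa (log2 fold change 1.81 ± 1.17, adjusted p = 0.358) were not called, and none of the 9 class II genes was. The calls of Ptprc and Ctsb were lost without any 1 graft and without extracranial tumor 2, 3 or 4.

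Single genes of other immune groups were called higher. Among 16 complement genes these were C2 (log2 fold change 2.74 ± 0.55, adjusted p = 0.023), C3 (log2 fold change 3.09 ± 0.83, adjusted p = 0.048) and Cfp, the stabilizer of the C3 convertase (log2 fold change 1.43 ± 0.35, adjusted p = 0.0386). C3, the central protein of the cascade, was at 154, 335 and 288 CPM in grafts and at 66.4, 11.9, 30.2 and 13.7 CPM in extracranial tumors. Csf3, the growth factor of neutrophils, was at 30.1, 46.5 and 21.5 CPM against 4.15, 0.311, 1.73 and 0.646 CPM (log2 fold change 4.27 ± 0.87, adjusted p = 0.023) and was called, with Ifng, among 18 cytokine genes. Ccl24, a chemokine that draws eosinophils, was the call among 27 chemokines, at 18.3, 130.1 and 6.16 CPM against at most 1.56 CPM (log2 fold change 6.92 ± 1.29, adjusted p = 0.0187). Of the 27 chemokines, 12 pointed upward and 15 downward. Their median was -0.86, or -0.16 and -0.24 without extracranial tumor 1 or 3. Cd22, a receptor of B cells, was the call among 13 B and plasma cell genes (log2 fold change 2.34 ± 0.54, adjusted p = 0.0318). Cxcr2, a neutrophil chemokine receptor, was at 16.6, 1.55 and 152 CPM against 1.61, 1.83, 0.477 and 0.136 CPM, so graft 2 overlapped the extracranial tumors (log2 fold change 5.81 ± 1.38, adjusted p = 0.0349). Of 12 neutrophil genes, 1 was called higher and 0 lower, and 6 pointed upward and 6 downward. The median of the neutrophil list was -0.10, or 0.92 without extracranial tumor 3. Of C2, C3, Cfp, Csf3, Ccl24, Cd22 and Cxcr2, none was called in all of the fits without 1 graft. Without extracranial tumor 2 the calls of Cfp, C3, Cd22 and Cxcr2 were lost, and without extracranial tumor 3 or 4 those of Cfp, C3 and Cxcr2.

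Endothelial genes that passed the test were higher in grafts. Of 17 endothelial genes, 2 were called higher and 0 lower, and 16 pointed upward with a median of 1.19. Robo4, a receptor of endothelial cells, was at 45.4, 57.1 and 41.7 CPM in grafts and at 16.9, 14.9, 6.21 and 7.14 CPM in extracranial tumors (log2 fold change 2.09 ± 0.43, adjusted p = 0.0246). Emcn, a sialomucin of capillaries and veins, was at 43.0, 39.9 and 34.4 CPM against 18.4, 17.6, 9.81 and 9.65 CPM (log2 fold change 1.5 ± 0.40, adjusted p = 0.046). Pecam1 overlapped, since extracranial tumor 2 was the highest library (log2 fold change 0.77 ± 0.61, adjusted p = 0.473). The pericyte potassium channel gene Abcc9 was called (log2 fold change 1.83 ± 0.35, adjusted p = 0.0207). It was the call among 14 contractile and pericyte genes, of which 7 pointed upward and 7 downward. The median of that list was -0.10, or 0.62 without extracranial tumor 2. Of 8 erythroid genes all pointed upward and Slc4a1, the anion exchanger of red cells, was called, with 6 to 25 counts in grafts and none in extracranial tumors, at least 12.8-fold higher (adjusted p = 0.0307). The 2 endothelial calls fell to 0 without any 1 graft and to 1 without extracranial tumor 2, 3 or 4, and without extracranial tumor 1 there were 5. The call of Abcc9 was lost without graft 1 or 2, and that of Slc4a1 without any 1 graft or extracranial tumor 2.

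Hox genes, which give cells their position along the body axis, had different levels by cluster and by library. Of 36 measured members, 2 were called higher and 0 lower, with a median log2 fold change of 1.38. Hoxd13, a gene of distal limb and genital tissue, was at 72.7, 120.4 and 56.7 CPM in grafts and at 0.146, 0.195, 0.0298 and 0 CPM in extracranial tumors (log2 fold change 9.73 ± 2.06, adjusted p = 0.0264). Hoxd11 was at 7.37, 9.51 and 4.19 CPM against at most 0.0298 CPM (log2 fold change 9.52 ± 2.23, adjusted p = 0.0371). Hoxa9, Hoxa10 and Hoxa11, of the posterior part of their cluster, were at 29.5, 27.6 and 31.2 CPM, at 45.2, 36.6 and 42.6 CPM and at 23.1, 23.1 and 24.6 CPM in grafts. In extracranial tumors they were at most 1.66, 1.22 and 0.488 CPM, each time in extracranial tumor 1, and none of them passed (adjusted p = 0.0851, 0.0534 and 0.0631). Hoxd10 was at 19.7, 21.3 and 18.9 CPM against 1.02, 0, 0.119 and 0 CPM (log2 fold change 6.23 ± 1.88, adjusted p = 0.0659).

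Extracranial tumor 1 was near the grafts in the anterior genes of the Hoxa cluster and in most of Hoxb. Hoxa5 was at 9.23, 12.8 and 12.1 CPM in grafts, at 21.6 CPM in extracranial tumor 1 and at 0 CPM in the other extracranial tumors. Hoxb7 was at 14.1, 17.4 and 24.9 CPM in grafts, at 36.7 CPM in extracranial tumor 1 and at 0.0340 to 0.537 CPM in the others. Without extracranial tumor 1, 13 Hox genes were called higher and the median was 5.18. Members of the Hoxc cluster pointed downward. Hoxc8 was at 10.9, 10.4 and 7.45 CPM in grafts against 76.0, 16.7, 53.8 and 120.5 CPM, without overlap, and was not called (log2 fold change -2.80 ± 0.77, adjusted p = 0.0516). Without graft 1, 2 or 3 no Hox gene was called, and without extracranial tumor 3 or 4 there was 1 higher. Without extracranial tumor 2 there were 1 higher and 1 lower.

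**Figure D4:**
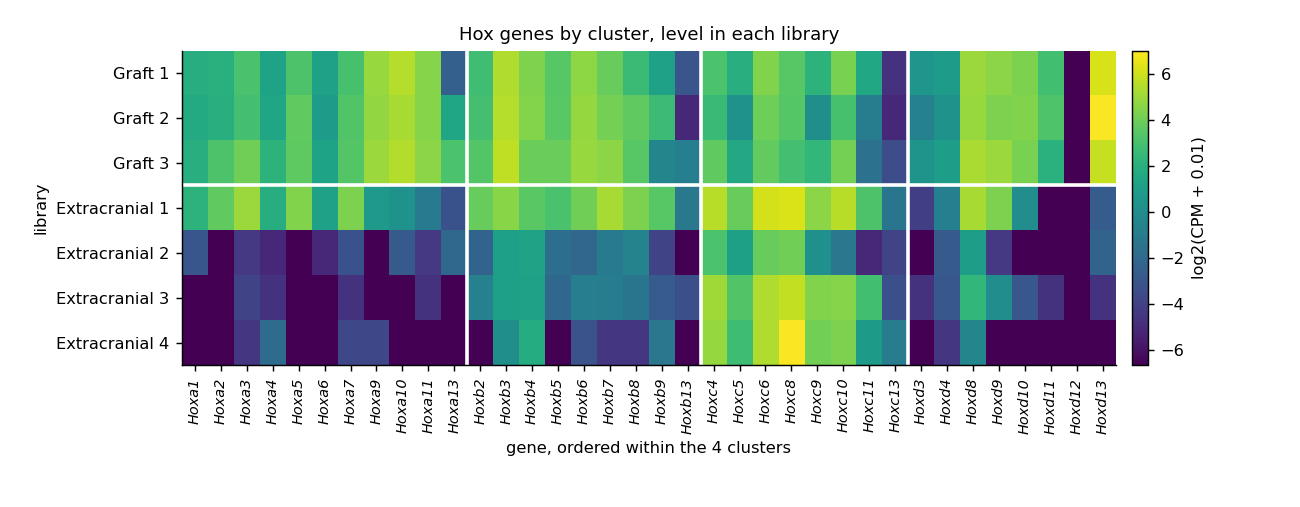
Colours give log2(CPM + 0.01) of 36 Hox genes, ordered within the Hoxa, Hoxb, Hoxc and Hoxd clusters, for grafts 1 to 3 (top rows) and extracranial tumors 1 to 4. Extracranial tumor 1 is near the grafts in anterior Hoxa genes such as Hoxa5 (21.6 CPM) and in Hoxb, and extracranial tumors 2 to 4 are darker than the grafts in both clusters.

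Other developmental factors were called one by one. Among 30 mesenchymal and neural crest factors, 2 were called higher and 0 lower, although the list's median was -1.92. The median was -1.23 without extracranial tumor 2 and -0.96 without extracranial tumor 3, and without extracranial tumor 1 3 members were called lower. Pax3, a factor of neural crest and muscle precursors, was at 9.20, 12.7 and 16.03 CPM in grafts and at 0.0488, 0.272, 0.0597 and 0.0680 CPM in extracranial tumors (log2 fold change 6.69 ± 1.30, adjusted p = 0.0209). Alx4, a factor of skull and limb mesenchyme, was at 63.7, 41.5 and 34.9 CPM against 0.146, 0.331, 2.12 and 0 CPM (log2 fold change 6.15 ± 1.51, adjusted p = 0.038). Tbx5, a factor of heart and forelimb, had low levels (0.591, 0.387 and 0.324 CPM against at most 0.0298 CPM, log2 fold change 5.51 ± 1.14, adjusted p = 0.0246). Wt1, a factor of kidney and mesothelium, was at 10.2, 6.93 and 0 CPM in grafts, so graft 3 overlapped the extracranial tumors (log2 fold change 8.24 ± 1.88, adjusted p = 0.0317). Lrp2, an endocytic receptor of kidney tubules, was likewise at 85.7, 20.8 and 0.0627 CPM against at most 0.234 CPM (log2 fold change 7.80 ± 1.61, adjusted p = 0.0246). Except for Wt1 and Lrp2 without graft 3, the calls of these 5 genes were lost without each graft in turn. Without extracranial tumor 2 or 4 those of Alx4 and Wt1 were lost too.

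Hedgehog signalling genes were lower in grafts where they passed the test. In this pathway a ligand binds Patched, which frees Smoothened and lets Gli factors act, and Gli1 and Ptch1 are themselves targets, so that their transcripts are read as its output. Of 16 pathway genes, 0 were called higher and 2 lower, and the median log2 fold change was -0.89, or -1.61 without graft 3. Gli1, on chromosome 10 from 127329882 to 127341974 in GRCm38, was at 0.0844, 0.387 and 0.272 CPM in grafts and at 89.4, 36.7, 116 and 40.1 CPM in extracranial tumors. The grafts had 3, 21 and 26 counts, and every extracranial tumor had at least 1180 (log2 fold change -8.11 ± 1.13, adjusted p = 0.00481). The call held in all 15 alternatives. Gli1 averaged 5.67 CPM in Myc CNS tumors, 46.5 in SHH CNS tumors and 14.8 in healthy brain. Ptch1, the receptor, was at 19.1, 19.4 and 26.3 CPM against 201, 32.2, 79.7 and 42.1 CPM (log2 fold change -2.04 ± 0.52, adjusted p = 0.0421), and this call was lost without each graft in turn. Smo, the signal transducer, was at 72.0, 51.6 and 110.0 CPM against 60.4, 128, 229 and 91.1 CPM, and extracranial tumor 1 lay within the grafts' range (log2 fold change -0.71 ± 0.42, adjusted p = 0.316). Gas1, a coreceptor, was at 84.0, 42.9 and 62.1 CPM against 28.2, 316, 1725 and 405 CPM (log2 fold change -3.30 ± 1.20, adjusted p = 0.107).

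Genes of the Wnt pathway that passed the test were lower in grafts, and ligands, inhibitors and a receptor were among them. Wnt proteins bind Frizzled and Lrp receptors, and secreted inhibitors such as the Sfrp proteins and Notum limit them. Of 34 measured genes, 0 were called higher and 8 lower, with a median of -1.59, or -0.82 without extracranial tumor 3. Notum, an enzyme that inactivates Wnt and is induced by it, was at 0.0563, 0.0184 and 0.0209 CPM in grafts and at 44.2, 7.51, 47.0 and 1.09 CPM in extracranial tumors (log2 fold change -9.65 ± 1.58, adjusted p = 0.0106). Lgr5, a receptor of R-spondins, had no count in grafts and 4 to 33 counts in extracranial tumors, which is at least 29.2-fold lower in grafts (adjusted p = 0.0182). The inhibitor Sfrp1 was at 0.506, 0.405 and 0.459 CPM against 6.78, 3.46, 3.67 and 2.55 CPM (log2 fold change -3.16 ± 0.68, adjusted p = 0.0266). Sfrp2 was called too (log2 fold change -4.25 ± 0.99, adjusted p = 0.0326). The ligand Wnt5a was at 0.563, 1.23 and 0.324 CPM against 2.59, 33.2, 1422 and 66.0 CPM (log2 fold change -9.08 ± 2.14, adjusted p = 0.0339), with most of the group's level in extracranial tumor 3. Rspo2, a secreted enhancer of Wnt signalling outside the list and named after its values were seen, was at 0.0844, 0.0369 and 0.0313 CPM against 10.9, 2.24, 13.9 and 1.70 CPM (log2 fold change -7.18 ± 1.03, adjusted p = 0.00611). Its call held with each library left out, and not with the 7 libraries alone (adjusted p = 0.0609). The Wnt list fell to 0, 0 and 1 calls without graft 1, 2 or 3, to 1 with the 7 libraries alone, and rose to 12 without extracranial tumor 1.

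BMP and TGF-beta genes, which pattern tissue and drive matrix production, were lower in grafts where they passed the test. Of 29 measured genes, 0 were called higher and 5 lower, with a median of -1.57, or -0.90 without extracranial tumor 2. The ligand Tgfb2 was at 1.77, 2.45 and 1.55 CPM in grafts and at 3.51, 32.8, 101 and 231 CPM in extracranial tumors (log2 fold change -5.58 ± 1.10, adjusted p = 0.0217). Bmp4, another ligand, was at 0.788, 1.36 and 0.397 CPM against 1.12, 27.3, 5.34 and 43.2 CPM, where extracranial tumor 1 lay among the grafts (log2 fold change -4.50 ± 1.09, adjusted p = 0.0365). The receptor Bmpr2 was at 93.8, 95.6 and 101 CPM against 115, 193, 187 and 208 CPM (log2 fold change -0.86 ± 0.18, adjusted p = 0.0249). Grem1, a secreted antagonist of BMPs, was at most 0.0369 CPM in grafts and at 197, 812, 0.0895 and 2.82 CPM in extracranial tumors, so its level came mainly from extracranial tumors 1 and 2 (log2 fold change -13.33 ± 2.71, adjusted p = 0.023). No gene of this list was called without graft 1, 2 or 3 or with the 7 libraries alone. Among 33 receptor tyrosine kinase genes the neurotrophin receptor Ntrk3 was called lower (log2 fold change -3.35 ± 0.85, adjusted p = 0.0417), and among 18 Notch genes the target Nrarp higher (log2 fold change 2.17 ± 0.49, adjusted p = 0.0306). Both calls were lost without each graft in turn, and that of Ntrk3 also without extracranial tumor 2.

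Extracellular matrix genes that passed the test were lower in grafts. Of 32 collagen genes, 0 were called higher and 6 lower, with a median of -1.50. Col5a2, a chain of a collagen that regulates fibril width, was at 43.9, 253 and 68.2 CPM in grafts and at 353, 3315, 2371 and 2570 CPM in extracranial tumors (log2 fold change -4.14 ± 0.86, adjusted p = 0.0249). Col16a1 was at 8.64, 8.75 and 12.6 CPM against 8.83, 389, 1000 and 769.9 CPM, and extracranial tumor 1 lay at the level of the grafts (log2 fold change -5.76 ± 1.14, adjusted p = 0.0221). Col27a1 (log2 fold change -3.84 ± 0.97, adjusted p = 0.0418) and Col12a1 (log2 fold change -3.39 ± 0.87, adjusted p = 0.0427) were also called. Col1a2, a chain of the main fibril collagen, was at 1233, 824 and 1227 CPM against 277, 3098, 4818 and 5784 CPM, lowest in extracranial tumor 1 (log2 fold change -1.67 ± 1.04, adjusted p = 0.339). The summed collagens were 5435 to 5479 CPM in grafts and 10951 to 19276 CPM in extracranial tumors.

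Of 26 proteoglycan and matricellular genes, 0 were called higher and 5 lower, 24 pointed downward and the median was -2.51. Ogn, a small leucine-rich proteoglycan, was at 48.4, 39.0 and 26.7 CPM in grafts and at 1041, 925, 1398 and 319 CPM in extracranial tumors (log2 fold change -4.60 ± 0.87, adjusted p = 0.0195). Fbn1, the fibrillin of elastic microfibrils, was at 51.5, 59.3 and 66.8 CPM against 584, 173, 153 and 439 CPM (log2 fold change -2.51 ± 0.55, adjusted p = 0.03). Both genes were separated without overlap in all 7 libraries. Fmod was at 0.9002, 0 and 0.397 CPM against 1354, 8.08, 24.6 and 28.5 CPM (log2 fold change -9.72 ± 2.29, adjusted p = 0.0343), with extracranial tumor 1 far above the rest, and Mfap4 at 0.225, 0.111 and 0.261 CPM against 2.39, 33.0, 213 and 48.0 CPM (log2 fold change -8.52 ± 2.15, adjusted p = 0.0417). Postn missed the threshold (log2 fold change -5.45 ± 1.57, adjusted p = 0.0582). Timp2, an inhibitor of matrix metalloproteases, was at 145, 114 and 142 CPM against 3528, 1038, 181 and 1456 CPM (log2 fold change -3.54 ± 0.80, adjusted p = 0.0311) and was the call among 24 genes of matrix proteases and crosslinkers. Lrrc15, a gene of activated fibroblasts, was the call among 14 fibroblast genes (log2 fold change -6.36 ± 1.49, adjusted p = 0.0331). Without graft 1, 2 or 3 the collagen calls were 0, 1 and 0 and those of proteoglycans 0 each. Without extracranial tumor 1 they rose to 9 and 6, and without extracranial tumor 2 or 4 the collagens called lower fell to 3, with 1 called higher in the latter case.

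**Figure D5:**
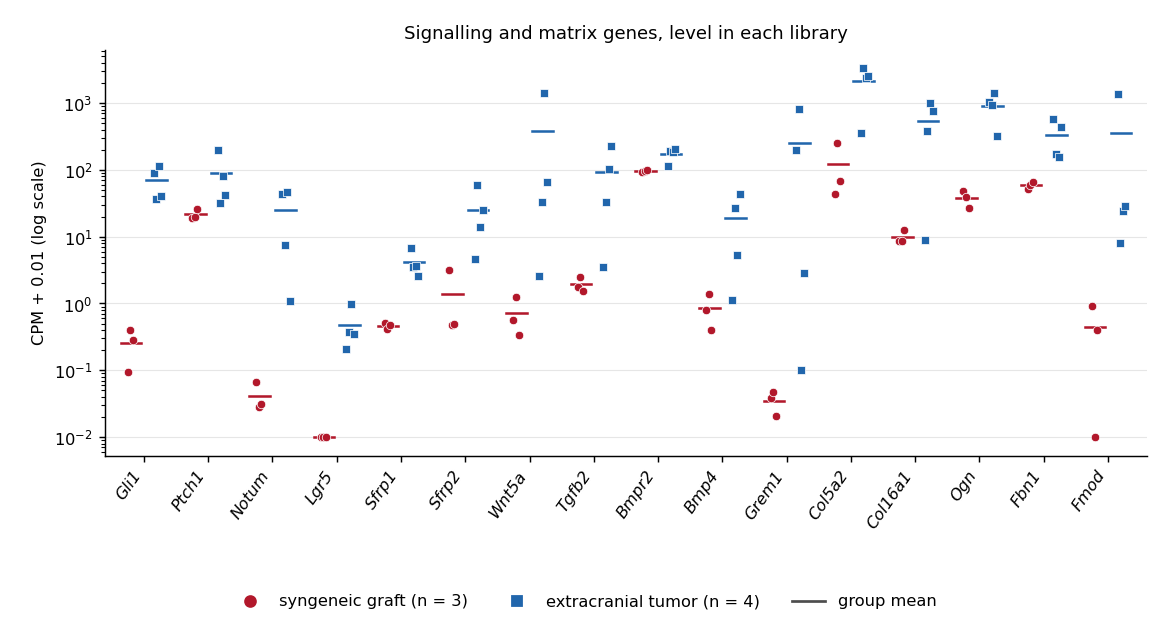
CPM + 0.01 on a log axis for 16 signalling and matrix genes, with circles for the 3 grafts, squares for the 4 extracranial tumors and bars for group means. Grafts lie below in each gene by their mean. Extracranial tumors spread widely in Wnt5a, Grem1 and Fmod.

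The 12 largest decreases, of which Grem1 is given above, were genes whose level differed widely among extracranial tumors. Aqp5, a water channel of gland and airway epithelium, was at 566, 185, 2.89 and 602 CPM in extracranial tumors and had 1 count in all grafts together (log2 fold change -15.43 ± 2.84, adjusted p = 0.018). Npy, a neuropeptide, was at 509.6, 35.8, 23.6 and 8.84 CPM against at most 0.0921 CPM in grafts (log2 fold change -11.90 ± 2.69, adjusted p = 0.0311). P2rx2 (0.0976, 0.0778, 363 and 0.0680 CPM), Calcr (0.927, 1.401, 158 and 4.86 CPM) and Hcrtr1 (1.95, 0.993, 281 and 0.986 CPM) were high in extracranial tumor 3. Faim2 (89.5, 1.77, 0.358 and 179 CPM), Angptl1 (59.5, 5.66, 1.85 and 357 CPM) and Nyap2 (3.27, 0.0195, 0.119 and 93.1 CPM) were highest in extracranial tumor 4, as were C1qtnf3, Crabp1 and Sfrp4 at 489.8, 743 and 535 CPM. In all of these the grafts were at most 0.169 CPM, and the rule that chose the genes required grafts below every extracranial tumor. Their adjusted p-values ran from 0.018 to 0.0484. Each of these calls was lost without each graft in turn. Without extracranial tumor 4 those of C1qtnf3 and Crabp1 were lost as well, without extracranial tumor 2 that of Crabp1, and without extracranial tumor 3 that of P2rx2.

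Transcripts of other tissues differed between single libraries of both groups. Of 18 skeletal muscle genes, 0 were called higher and 1 lower, all 18 pointed downward and the median was -4.89, or -3.50 without extracranial tumor 1. The list summed to 18.1 to 21.2 CPM in grafts and to 234, 147, 70.1 and 75.3 CPM in extracranial tumors. Actn3, of fast muscle fibres, was called (0.422, 0.387 and 0.909 CPM against 8.24, 8.54, 37.9 and 2.62 CPM, log2 fold change -4.63 ± 0.98, adjusted p = 0.0262), while the muscle actin Acta1 was at 46.8, 35.3, 0.0298 and 1.22 CPM in extracranial tumors (log2 fold change -5.16 ± 2.07, adjusted p = 0.138). Of 12 cartilage and bone genes none was called, and Ctsk, the protease of bone-resorbing osteoclasts, was at 382, 12.9, 17.8 and 8031 CPM in extracranial tumors against 2.93, 3.78 and 9.57 CPM in grafts (log2 fold change -8.60 ± 2.37, adjusted p = 0.0522). The cartilage and bone list summed to 908, 295, 265 and 15587 CPM in extracranial tumors and to at most 156 CPM in grafts. Nppb of heart (log2 fold change -9.07 ± 2.05, adjusted p = 0.031), Sbsn of epidermis (log2 fold change -2.55 ± 0.64, adjusted p = 0.0412) and the myelin gene Pmp22 (log2 fold change -2.15 ± 0.55, adjusted p = 0.0424) were the calls of their lists, all lower in grafts. Stmn2, a regulator of microtubules in neurons, was called lower among the neuronal genes (log2 fold change -7.83 ± 1.87, adjusted p = 0.0351). Kidney tubule genes summed to 137, 56.4 and 14.9 CPM in grafts, nearly all of it from the endocytic receptors Lrp2 and Cubn, and to 1.51, 2.63, 3.61 and 13.6 CPM in extracranial tumors. Of the 7 kidney tubule genes tested, 2 pointed upward and 5 downward. Their median was -2.18, or -1.25 and -1.09 without extracranial tumor 2 or 4. Adipocyte genes summed to 222, 386 and 336 CPM in grafts and to 281, 42.3, 41.2 and 62.9 CPM in extracranial tumors, so that extracranial tumor 1 lay among the grafts, and none of the 9 tested was called. Adipoq, the adiponectin gene that marks fat cells, was at most 0.627 CPM in grafts and 4.59 CPM in extracranial tumors. The part of such tissue in the differences of collagens, matrix and signalling genes was not tested. Each of these calls was lost without each graft in turn, and that of Pmp22 also without extracranial tumor 2 or 4.

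Cell cycle genes pointed upward in grafts but were called in 1 case. Of 25 replication genes and 25 mitosis genes all pointed upward, with medians of 0.68 and 0.77, and Kif23, a kinesin of cell division, was called. It was at 146, 88.1 and 139 CPM in grafts and at 34.7, 33.6, 49.3 and 37.1 CPM in extracranial tumors (log2 fold change 1.69 ± 0.35, adjusted p = 0.0246), a call that was lost without each graft in turn. Mki67, the gene of the proliferation marker Ki-67, was at 305, 224 and 229 CPM against 176, 150.3, 370.1 and 198 CPM and overlapped (log2 fold change 0.17 ± 0.41, adjusted p = 0.84). Top2a (log2 fold change 0.48 ± 0.37, adjusted p = 0.453) and Rrm2 (log2 fold change 0.97 ± 0.45, adjusted p = 0.195) did not pass. Extracranial tumor 3 was the highest library for Mki67, and the other extracranial tumors were below all grafts.

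Transcripts of the respiratory chain were lower in grafts as far as they passed. All 13 mitochondrially encoded genes pointed downward with a median of -0.99, and 3 were called lower. These were mt-Co3 (8.66, 15.0 and 12.7 CPM against 23.3, 26.5, 24.2 and 28.4 CPM, log2 fold change -1.08 ± 0.25, adjusted p = 0.0313), mt-Co2 (log2 fold change -0.99 ± 0.26, adjusted p = 0.0449) and mt-Atp6 (log2 fold change -1.12 ± 0.29, adjusted p = 0.0442). mt-Co1 was at 8272, 7839 and 7381 CPM against 9643, 10525, 14756 and 18089 CPM without overlap and was not called (log2 fold change -0.76 ± 0.29, adjusted p = 0.117). In every library mt-Co3 was thus far below mt-Co1. How reads with several matches in the genome were counted is not known, so the values of the called mitochondrial genes are uncertain. Of 30 nuclear respiratory genes, 28 pointed downward with a median of -0.47, and Ndufa4 (log2 fold change -1.63 ± 0.38, adjusted p = 0.0333) and Uqcrh (log2 fold change -0.68 ± 0.17, adjusted p = 0.037) were called lower. No respiratory gene was called without any 1 graft, without extracranial tumor 4 or with the 7 libraries alone. Without extracranial tumor 2 no mitochondrially encoded gene was called, and without extracranial tumor 1 or 3 there were 6 and 1. The share of mitochondrial transcripts is also a measure of RNA and tissue quality, and its part in these differences was not tested.

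None of the oncogenes, oncofetal genes and cell cycle brakes chosen by name was called. Myc was at 163, 153 and 104 CPM in grafts and at 97.6, 137, 201 and 105 CPM in extracranial tumors (log2 fold change 0.05 ± 0.35, adjusted p = 0.959), and Mycn stayed under 3 CPM in all 7 libraries (adjusted p = 0.475). Hmga2, a chromatin protein of embryonic cells, was at 311, 247 and 495 CPM against 2.78, 383, 1.10 and 168 CPM, so extracranial tumors 1 and 3 nearly lacked it (log2 fold change 1.34 ± 1.18, adjusted p = 0.518). Of the oncofetal RNA-binding genes, Igf2bp3 was at 22.4, 28.5 and 9.29 CPM against 1.71, 0.584, 1.94 and 0.170 CPM without overlap and missed the threshold (log2 fold change 4.20 ± 1.29, adjusted p = 0.0689). Igf2bp1 (log2 fold change 1.61 ± 1.61, adjusted p = 0.577), Igf2bp2 (log2 fold change 1.67 ± 1.13, adjusted p = 0.387) and Lin28b (log2 fold change 2.77 ± 1.12, adjusted p = 0.14) were not called. Cdkn2a, a brake on the cell cycle that rhabdoid tumors can still express, was at 65.0, 62.6 and 69.1 CPM against 28.6, 39.4, 18.8 and 25.0 CPM without overlap (log2 fold change 1.23 ± 0.39, adjusted p = 0.0725). Trp53 (log2 fold change 0.52 ± 0.23, adjusted p = 0.179) and the mesenchymal factor Prrx1 (log2 fold change -0.97 ± 0.75, adjusted p = 0.453) were not called. Among 20 Polycomb genes Cbx7 was called lower (log2 fold change -1.80 ± 0.46, adjusted p = 0.0417), among 12 genes of the Myc network Mlxip higher (log2 fold change 1.10 ± 0.28, adjusted p = 0.0421), and among 20 Trp53 targets Sesn2 (log2 fold change 1.42 ± 0.34, adjusted p = 0.0353) and Perp (log2 fold change 3.62 ± 0.96, adjusted p = 0.0462) higher. The 4 calls were lost without graft 1 or 2, and those of Cbx7 and Mlxip also without graft 3. Those of Cbx7 and Sesn2 were lost without extracranial tumor 4, and those of Mlxip and Perp without extracranial tumor 1, 2 or 3.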

How the data were processed

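Poly(A) RNA of mouse tumors and brain was sequenced from a TruSeq Stranded mRNA library per sample, per the labels' protocols. The deposited values are whole-number read counts per Ensembl gene, not normalized. The submitters' processing notes name STAR 2.5.3a and mm10, and the counting tool and its strand setting are not given in the sources used here. Groups come from the sample titles. Names and coordinates were matched by gene identifier for 45737 of 50600 identifiers with their version and for 50376 without it.

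The filter was filterByExpr at a minimum count of 10. It passed 21494 genes, which held 99.9635% of all counts. edgeR 4.0.16 (R 4.3.3) fitted all 17 libraries as 5 group means with TMM scaling and a robust quasi-likelihood test, and the contrast was grafts minus extracranial tumors. CPM values use the TMM-scaled library sizes, and SEs were derived from the fold change and its F statistic. Total counts were 22491998 to 96214427 per library in the 7 libraries compared. The SEs include the spread between libraries, and the floors cover counting error only. Figures were drawn with matplotlib 3.10.9.

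The genes named are the 12 largest increases and 12 largest decreases among called protein-coding genes whose higher group averaged 10 CPM or more, with an ordinary symbol and no overlap between the groups. To these come a set chosen by name, all Hox genes, and up to 4 called and 2 highest members of each list. Genes outside this rule are marked as chosen after their values were seen. The members and lists were chosen with earlier results of these data known.

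The alternatives were RLE size factors, no filter on low counts, a minimum count of 50, DESeq2 1.42.0, voom with quality weights in limma 3.58.1, the 7 libraries alone, the 14 tumors alone, the library number as a block, and each of the 7 libraries left out. How often genes that do not differ are called under the wider spread of extracranial tumors was not tested.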

Additional observations from a re-analysis of the deposited data

Results flagged for a closer look

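In 34 of the 150 genes examined (22.7%), 1 of the 4 extracranial tumors lay so far above the other 3 that its gap to the nearest of them passed Dixon's 95% critical value for 4 samples. Chance flags about 1 in 20 such groups of normally distributed values. The CPM values were not log-transformed, so this rate need not hold for them. Many of the genes were named for calls in the same data, and genes that share a tumor are not independent. In all 34 the outlying library was the highest. In 5 of them it rested on at most 3 reads, 1 read in Oit1, Eras, Tbx5 and Hoxd11 and 2 in Wt1, with none in the other extracranial tumors, so these 5 say nothing about an outlying tumor. Extracranial tumor 1 was the outlying library for Acot4 (1.90 CPM), Eras (0.0488 CPM), Cldn6 (1.42 CPM), Npy (509.6 CPM), Eomes (10.5 CPM), Ccl24 (1.56 CPM), Wt1 (0.0976 CPM), Hoxa5 (21.6 CPM), Hoxa9 (1.66 CPM), Hoxa10 (1.22 CPM), Hoxa11 (0.488 CPM), Hoxb7 (36.7 CPM), Hoxd10 (1.02 CPM) and Fmod (1354 CPM). Extracranial tumor 2 was the outlying library for Npr3 (8.08 CPM), Oit1 (0.0195 CPM) and Pax3 (0.273 CPM). Extracranial tumor 3 was the outlying library for Crb2 (0.477 CPM), P2rx2 (363 CPM), Calcr (158 CPM), Hcrtr1 (281 CPM), Alx4 (2.12 CPM), Tbx5 (0.0298 CPM), Wnt5a (1422 CPM), Hoxd11 (0.0298 CPM), Actn3 (37.9 CPM) and Igf2bp1 (75.2 CPM). Extracranial tumor 4 was the outlying library for Acot2 (14.5 CPM), Angptl1 (357 CPM), Nyap2 (93.1 CPM), Col27a1 (73.0 CPM), Stmn2 (394 CPM), Ctsk (8031 CPM) and Mlxip (92.8 CPM). Groups of 3, such as the grafts, were not examined in this way.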

How the results depend on the processing

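Against 465 genes higher and 563 lower, RLE size factors gave 491 and 546 and a minimum count of 50 gave 448 and 614. Testing every gene with a count gave 296 and 218, DESeq2 1504 and 2229, limma voom with quality weights 1640 and 1255, the 7 libraries alone 71 and 39, and the 14 tumors alone 97 and 64. Leaving out 1 library at a time gave 44 to 854 higher and 10 to 1116 lower genes, with the lowest counts without a graft and the highest without extracranial tumor 1. The share of calls that were higher was 45.2% as reported, 56.6% with voom, 64.5% with the 7 libraries, 84.4% without graft 1, 40.3% with DESeq2, and 39.3% and 39.1% without extracranial tumor 3 or 4. The cause of these changes was not tested. Of 112 named genes that were called, none changed direction in any alternative. Their calls held for 112 under RLE size factors, 103 under voom, 27 with the 7 libraries, and 24, 22 and 36 without graft 1, 2 or 3. Under DESeq2 they held for 106 and were lost for 0, and the rest had no adjusted p-value. With the 7 libraries 80 calls were lost, and the rest of the genes were not tested. Of 38 named genes that were not called, DESeq2 called 13 and voom 14. Myc, with a log2 fold change of 0.05, turned to -0.03 under the replicate block and ran from -0.10 to 0.30 with 1 library left out, below 0 without extracranial tumor 1 or 4 or graft 1 or 2. The library number as a replicate block gave 269 higher and 161 lower genes. Deviations of same-numbered libraries correlated at 0.048, 0.073 and 0.043, so the numbers were not taken to pair them, although each of these libraries correlated best with its own number. Genes with few counts, such as Ifng, Lgr5 and Slc4a1, are limited by depth.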
